A study of Homo sapiens with 4 samples.

Results

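The methionine cycle and the folate one-carbon pathway were followed through 10 genes of their enzymes in RCM-1 cells, a human colorectal cancer line from a well-differentiated rectal tumour. The genes were MAT2A, MAT2B, AHCY, MTR, MTRR, SHMT1, SHMT2, MTHFD1, MTHFD2 and MTHFD1L, chosen by name, and every probe set whose platform annotation lists one of them was taken. The array reads 19775 genes by a probe set with 1 gene symbol, and 10505 of these, with 8 of the 10 enzyme genes, had one bright enough to be kept. SHMT1 and MTHFD1L were the exceptions.

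The study treated near-confluent RCM-1 cells with 1 mM methylthioacetic acid (MTA), a small analogue of sulphur compounds isolated from a melon, to find genes that change while the cells prepare to form domes, blister-like areas of the cell sheet. MTA stands here for this acid and not for methylthioadenosine, a by-product of polyamine synthesis. The groups were 0 h, the control, and 6, 12 and 18 h of MTA, with 1 array each, and acetonitrile at 0.1% was the vehicle. After MTA the cells stayed in vehicle medium up to 24 h, so that the 6, 12 and 18 h cells spent 18, 12 and 6 h without the compound. Hours of MTA and hours after its removal therefore cannot be told apart. The protocol gives 24 h as the end of culture for the whole series and says nothing more of the 0 h cells. All values come from 1 cell line. There are no replicates, so nothing was tested, and 4 arrays bound how precise any value can be.

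In the methionine cycle, methionine adenosyltransferase makes S-adenosylmethionine, the methyl donor of the cell, and the product left after methyl transfer is cleaved to homocysteine, which is methylated back to methionine. That last step takes its methyl group from folate and needs vitamin B12. Folate in turn collects carbon units from serine, largely in mitochondria, and hands them to the synthesis of purines, of thymidylate and of methionine. Dividing cells draw on this supply.

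Promoter windows of RefSeq (GRCh38.p14), which run from 250 bases before to 50 after a start site, were at hand for 8 of the 10 genes, and MTRR and SHMT2 are named only. They were searched on both strands for CACGTG, the E-box bound by MYC and related factors, and for TGATGCAA, a C/EBP-ATF response element of the kind bound by ATF4. Only MTHFD1 and MTHFD1L, which encode related enzymes, had a match. They are shown for that reason, with the matches in capitals.
MTHFD1, chr14:64388288-64388372, plus strand: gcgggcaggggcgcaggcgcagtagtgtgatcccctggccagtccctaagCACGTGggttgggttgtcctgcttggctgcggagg
MTHFD1L, chr6:150866282-150866414, plus strand: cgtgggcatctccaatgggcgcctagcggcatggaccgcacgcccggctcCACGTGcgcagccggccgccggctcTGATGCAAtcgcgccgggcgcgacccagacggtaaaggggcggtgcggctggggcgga
The E-box of MTHFD1 starts at -15 from its start site. In MTHFD1L the E-box starts at -154 and the TGATGCAA at -129 from the first of its 4 listed start sites. Both motifs lie in 3 of the 4 windows, which overlap. By window, 4 of the 15 windows of the 8 genes held the E-box and 3 the other motif, 3 of each being the overlapping windows of MTHFD1L. Of all 35116 promoter windows 7.26% hold the E-box and 0.866% the other motif. A match describes the letters and shows no binding.

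The arrays gave MAS5 signals, intensities on a linear scale that the authors deposited, and a log2 ratio sets an MTA array against the 0 h array. The kept genes as a whole had median log2 ratios of 0.11, -0.28 and -0.47 for 6, 12 and 18 h. RNA controls added before labelling averaged 0.20, 0.03 and -0.25 at 6, 12 and 18 h, and controls added after labelling 0.02, -0.27 and -0.05. Their part in the lower signals was not tested. For 4676 genes with at least 2 kept probe sets, the SD of the difference in log2 ratio between the brightest pair was 0.41, 0.42 and 0.48 at 6, 12 and 18 h, and this is the only error these arrays hold. It is a spread within the arrays and not between cultures. The signal near the 3' end of ACTB over that near its 5' end was 5.76, 4.76, 5.86 and 6.45 at 0, 6, 12 and 18 h. For GAPDH this ratio was 1.64, 1.44, 1.53 and 1.63. Whether RNA quality had a part in the lower signals or in the differences between probe sets was not tested. All 12 markers of intestinal epithelium were kept, EPCAM for example, whose signal of 7798 at 18 h stood against 10546 at 0 h, while PECAM1, at 28.6 at 18 h and 41.1 at 0 h, was the only kept one of 12 markers of fibroblasts, endothelium and leukocytes. The signals of the epithelial markers summed to 44120 at 18 h and 63360 at 0 h. A lower signal in such a bulk sample does not tell fewer cells with the transcript from less of it per cell.

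All 8 enzyme genes read by a kept probe set had lower signals after 18 h of MTA than at 0 h, by modest amounts. MTRR, the reductase that reactivates methionine synthase, had the lowest ratio, and MAT2B, a regulatory subunit, the highest. Over the 8 genes the median log2 ratios were -0.03, -0.28 and -0.62 for 6, 12 and 18 h. These medians lay -0.14, -0.0023 and -0.15 from those of all genes. At 18 h 7 of the 8 lay below the median of all genes and 1 above it, at 12 h 4 and 4, and at 6 h 5 and 3. With quantile normalization the split at 18 h was 5 and 3, and the shift from all genes -0.04. With a stricter filter of 10000 probe sets the split at 18 h was 6 and 2. The shift there was -0.07, and 0.05 at 12 h, against a median of all genes of -0.56 at 18 h. Without a filter the shift at 18 h was -0.26 over 10 genes, and on second probe sets -0.42 over 4. With the mean over kept probe sets the shift at 6 h was -0.0004.

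No enzyme gene passed the study's threshold of 1.5 on the log2 scale, which is 2.83-fold, at any time. At 18 h 3.19% of all genes were below -1.5 and 1.22% above 1.5, at 12 h 0.942% and 1.18%, and at 6 h 0.019% and 1.43%. At a threshold of 1, which is 2-fold, MTRR alone was lower on its brightest probe set, at 18 h, so 1 of 8 genes, against 15.8% of all genes. None of the 8 was above 1 at 18 h, where 3.15% of all genes were, and none was beyond 1 at 12 h (6.29% of all genes lower, 3.28% higher) or at 6 h (0.476% lower, 4.68% higher). With 8 genes these counts do not set the enzymes apart from other genes.

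**Figure D1:**
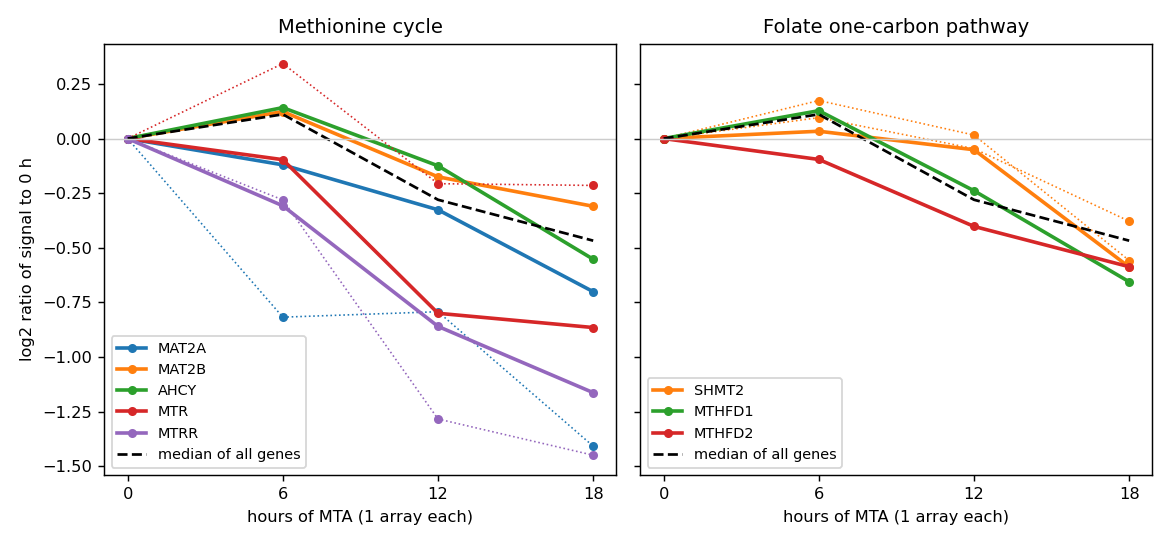
Log2 ratio of signal to 0 h against hours of MTA, for the kept probe sets with 1 gene symbol. Solid lines are the brightest probe set of each gene, dotted lines its others, and the dashed line is the median of all 10505 genes. MTRR lies below the dashed line throughout, and the brightest SHMT2 line stays near 0 until 12 h.

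Both subunits of the enzyme that makes S-adenosylmethionine had lower signals at 18 h than at 0 h, with the lower ratio for the catalytic one. MAT2A, the catalytic subunit outside the liver, had signals of 2827, 2601, 2255 and 1739 at 0, 6, 12 and 18 h on its brightest probe set, a log2 ratio of -0.70 at 18 h, or 61.5% of the 0 h signal. Its second probe set had 210.9, 119.7, 121.8 and 79.5, a log2 ratio of -1.41. Both were lowest at 18 h, but their ratios differed by 0.71, more than the SD between probe sets, and by 0.70 at 6 h.

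MAT2B, which regulates that enzyme, had signals of 1718, 1872, 1522 and 1386 at 0, 6, 12 and 18 h. Its log2 ratio at 18 h was -0.31, or 80.7% of the 0 h signal, a sign that turned, to 0.14, 0.29 and 0.21, with median centring, quantile normalization and division by the trimmed mean. In ratio MAT2B stood above 61.5% of all genes at 18 h, the highest of the 8 on their brightest probe sets. A further probe set of MAT2B was dim, with 1.03 at 18 h against 2.89 at 0 h, and is not read.

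AHCY cleaves S-adenosylhomocysteine, the product of methyl transfer, and had a single probe set, with signals of 3189, 3518, 2925 and 2175 at 0, 6, 12 and 18 h. Its log2 ratios were 0.14, -0.12 and -0.55 for 6, 12 and 18 h, and the last turned sign, to 0.02, only with quantile normalization among the scalings tried. At 18 h 44.0% of all genes had a lower ratio than AHCY, so it stood near their middle.

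Methionine synthase and its reductase had the lowest ratios of the 8 genes at 12 and 18 h on their brightest probe sets. MTR, the vitamin B12-dependent enzyme that turns homocysteine into methionine, had signals of 571.9, 534.9, 328.5 and 314.0 at 0, 6, 12 and 18 h, a log2 ratio of -0.87 at 18 h. Its second probe set had 119.9, 152.1, 103.9 and 103.3, a log2 ratio of -0.21, and brightest minus second gave -0.65. Each had nearly the same signal at 12 and 18 h, but they differed in ratio by more than the SD between probe sets.

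MTRR, which restores the oxidised cobalamin of MTR, had signals of 1450, 1171, 798.8 and 647.3 at 0, 6, 12 and 18 h on its brightest probe set. Its log2 ratios were -0.31, -0.86 and -1.16 for 6, 12 and 18 h, so that 44.6% of the 0 h signal was left, and 10.1% of all genes had a lower ratio. The second probe set had 292.8, 241.0, 120.2 and 107.2, with -0.28, -1.28 and -1.45. MTRR was lower with each longer exposure to MTA on both probe sets, and both were below -1 at 18 h. With median centring, quantile normalization, division by the trimmed mean or scaling to the poly-A controls the ratio of its brightest probe set at 18 h was no longer below -1, and with quantile normalization it was -0.57.

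**Figure D2:**
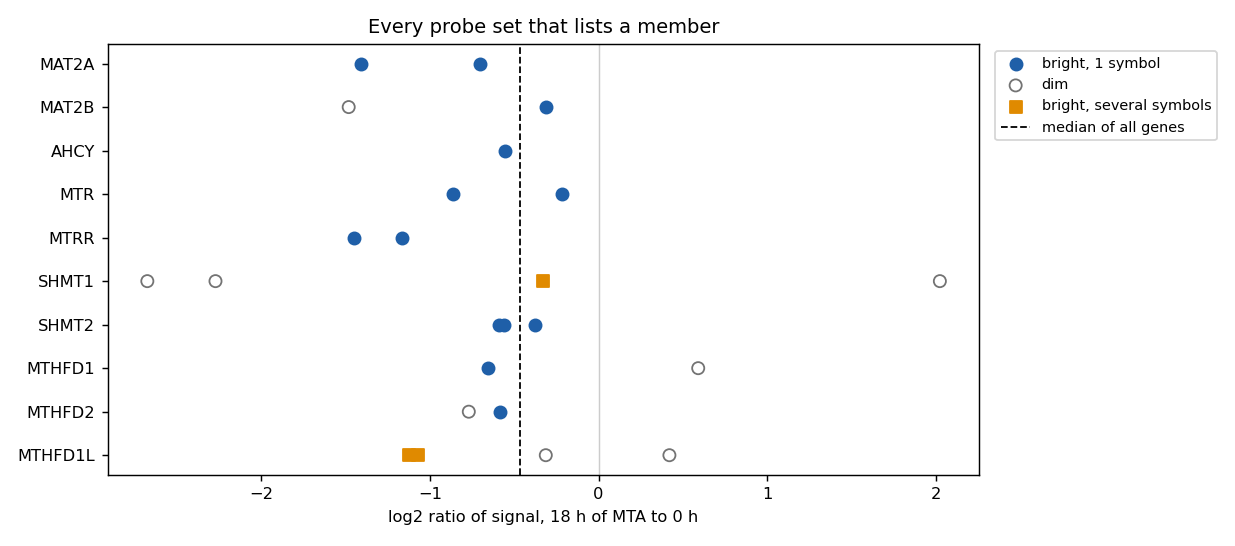
Log2 ratio of the 18 h signal to the 0 h signal, on the horizontal axis, for each of the 24 probe sets that list an enzyme gene, by gene. Filled circles are kept probe sets with 1 gene symbol, squares kept ones with several symbols, open circles dim ones, and the dashed line stands at -0.47, the all-gene median. Filled circles lie between -1.45 and -0.21, and open circles spread from -2.67 to 2.02.

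Of the measured folate enzymes, SHMT2 was near its 0 h signal with 12 h of MTA. SHMT2, which converts serine to glycine in mitochondria, had signals of 2095, 2145, 2022 and 1394 at 0, 6, 12 and 18 h on its brightest probe set. Its log2 ratios were 0.03, -0.05 and -0.59 at 6, 12 and 18 h. The other kept probe sets of SHMT2 had -0.05 and 0.02 at 12 h, and -0.38 and -0.56 at 18 h. All 3 probe sets thus placed the lower signal at 18 h, and at 12 h SHMT2 stood above 68.0% of all genes in ratio. With quantile normalization its ratio at 18 h was 0.02.

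MTHFD2, a mitochondrial dehydrogenase and cyclohydrolase that processes the carbon unit from SHMT2, had signals of 2731, 2556, 2067 and 1818 at 0, 6, 12 and 18 h. Its log2 ratio at 18 h was -0.59, or 66.6% of the 0 h signal, and -0.0016 with quantile normalization. Its 12 h signal was 75.7% of that at 0 h, where the brightest probe set of SHMT2 had 96.5%. A second probe set, with a mean signal of 33.3 just below the lowest mean signal kept, 34, had 23.0 at 18 h against 39.2 at 0 h, or -0.77 on the log2 scale.

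MTHFD1, the cytosolic enzyme that carries out the same steps and also charges folate with formate, had signals of 2425, 2649, 2055 and 1539 at 0, 6, 12 and 18 h. Its log2 ratios were 0.13, -0.24 and -0.66 for 6, 12 and 18 h. So SHMT2, MTHFD2 and MTHFD1 lay close together at 18 h, between -0.66 and -0.59, where a brightest pair of probe sets for the same gene had a median difference of 0.25.

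SHMT1, the cytosolic counterpart of SHMT2, and MTHFD1L, the mitochondrial enzyme that releases formate, had no kept probe set of their own. A probe set that lists SHMT1 together with the microRNA gene MIR6778 had signals of 132.6, 159.1, 118.6 and 105.5 at 0, 6, 12 and 18 h, a log2 ratio of -0.33 at 18 h. A pair that lists MTHFD1L with LOC100996643 and LOC101928195, annotated as transcribed pseudogenes, had -1.12 and -1.07 at 18 h. The brighter of this pair had 573.8, 507.4, 308.1 and 263.7 at 0, 6, 12 and 18 h. Which of the listed genes these signals come from is not settled by the arrays, so they were not counted for the enzymes. The probe sets of SHMT1 or MTHFD1L alone had mean signals of at most 5.60, too dim for a ratio to be read.

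**Figure D3:**
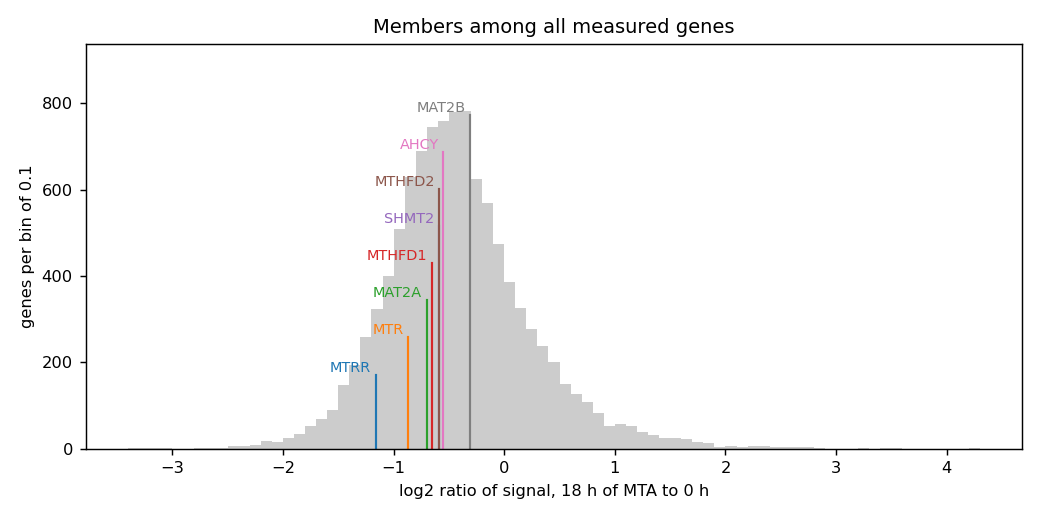
Distribution of the 18 h log2 ratio over all 10505 genes, in bins of 0.1, with a line at each of the 8 enzyme genes, whose heights only separate the names. All lie in the body of the distribution, between MTRR at -1.16 and MAT2B at -0.31.

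The genes differed in the length of MTA at which their signals were lower. MTA cells of every group were cultured up to 24 h. The earlier step sets 12 h of MTA against 6 h, and the later one 18 h against 12 h. They compare exposures with different times since removal, not moments of sampling. Set against the 6 h array, the 12 h log2 ratio was -0.70 for MTR and -0.55 for MTRR, where the median of all genes was -0.39. Set against 12 h, the 18 h ratio was -0.07 for MTR and -0.30 for MTRR, where that median was -0.20. SHMT2 had the opposite order, with -0.08 in the earlier step and -0.54 in the later one, and AHCY had -0.27 and -0.43. MTHFD1 had -0.37 and -0.42, MAT2A -0.21 and -0.38, MAT2B -0.30 and -0.13, and MTHFD2 -0.31 and -0.18. As deposited, MTR and MTRR thus had the larger step from 6 to 12 h of MTA and SHMT2 from 12 to 18 h. The other kept probe sets of MTR, MTRR and SHMT2 had the same order. The order of the steps of MTRR turned with scaling to the hybridization controls, to -0.27 and -0.52. The earlier step of SHMT2 was above 0 with each of the 5 other scalings, from 0.09 to 0.32. With median centring, quantile normalization and division by the trimmed mean it was also above 0 for MAT2A, MAT2B, AHCY, MTHFD1 and MTHFD2. The later step of MTR was -0.28 with scaling to the hybridization controls and 0.22 with scaling to the poly-A controls. As deposited, the second probe set of MTR had -0.55 and -0.01 for the earlier and later steps. The other kept probe sets of SHMT2 had -0.14 and -0.33, and -0.16 and -0.57. Each array also differs in the time since MTA was removed, and no step has a replicate.

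Around these enzymes, 39 of 59 further genes of the pathway had a kept probe set with 1 symbol, and 8 of them (20.5%) were below -1 at 18 h, with 15.8% of all genes as the background. With median centring 2 (5.1%) were below -1, FPGS and SLC25A32, against 3.74% of all genes, and with scaling to the poly-A controls 4 (10.3%), against 7.47%. With quantile normalization or division by the trimmed mean only SLC25A32 was (2.6%), against 3.86% and 3.07%. None was above 1 as deposited. Their median log2 ratio was -0.57. Of the other genes, 16 were read only by dim probe sets. SLC25A32, which carries folate into mitochondria, was the only one of the 39 below -1.5 on its brightest probe set, a mark that 3.19% of all genes passed. Less bright kept probe sets of GART, SLC38A1 and GCSH were also below it, at -1.81, -1.54 and -1.503.

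Carriers of folate differed among themselves at 18 h. SLC25A32 had signals of 1942, 1499, 753.2 and 526.4 at 0, 6, 12 and 18 h, and log2 ratios of -0.37, -1.37 and -1.88. With median centring, quantile normalization or division by the trimmed mean no folate carrier was past -1.5. The single probe set of SLC25A32 was lower with each longer exposure to MTA. SLC19A1, the reduced folate carrier of the cell surface, picked after its values had been seen, had -1.16 and -1.18 on a pair of probe sets. FOLR1, a folate receptor, was the highest of the 4 measured carriers at -0.27, but 0.73 on a second probe set. The median of the 4 was -0.83, a shift of -0.37 from all genes.

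The enzymes that add and remove the glutamate tail that holds folate in the cell stood at the ends of their list at 18 h. FPGS, which adds it, had signals of 364.9, 271.2, 160.0 and 133.4 at 0, 6, 12 and 18 h, a log2 ratio of -1.45. GGH, which removes it, had 1302, 2026, 1776 and 1757, a log2 ratio of 0.43, and of 0.64 at 6 h. So FPGS was lower with each longer exposure to MTA, and GGH was above its 0 h signal on every MTA array. The 7 measured folate enzymes had a median of -0.91, a shift of -0.44. Of these, 2 were below -1, against 15.8% of all genes. They were FPGS, and GART of purine synthesis, which was picked after its values had been seen. GART had -1.36 on its brightest probe set, while the 6 others kept for it ran between -1.81 and -0.14.

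**Figure D4:**
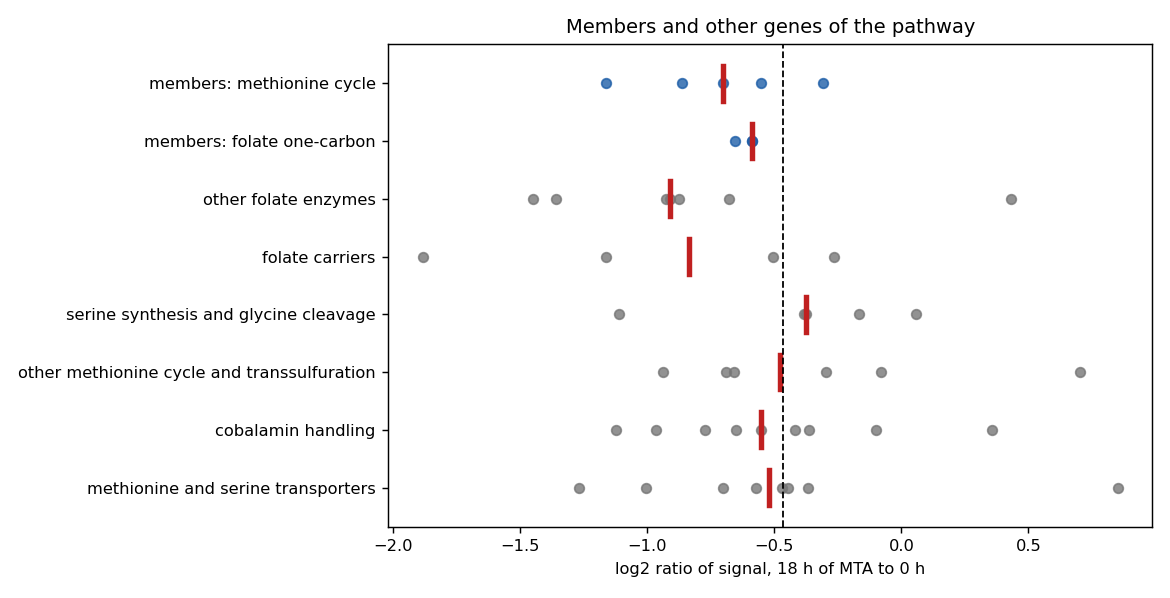
Log2 ratio of the 18 h signal to the 0 h signal for measured genes of 8 lists, the enzyme genes in blue and further pathway genes in grey. Red bars mark list medians and the dashed line -0.47, the all-gene median. The bars of the other folate enzymes, -0.91, and of the folate carriers, -0.83, lie farthest left, and SLC25A32 is the leftmost point.

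Genes that supply serine and glycine carbon were mixed. PSAT1, of serine synthesis, was the highest of 5 at 0.06 at 18 h, with signals of 1534, 1706, 1427 and 1598 at 0, 6, 12 and 18 h. GCSH, the carrier protein of the glycine cleavage system, was the lowest at -1.11, with 2432, 2501, 1321 and 1126, and its second probe set had a signal of 512.0 at 18 h against 1451 at 0 h. The list had a median of -0.38 and 1 gene below -1, a mark that 15.8% of all genes passed. The brightest probe set of PSAT1 was close to its 0 h signal on every array and that of GCSH at 6 h alone, while a second one of PSAT1 had 0.53 at 18 h.

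Beside the enzymes above, the other 6 measured genes of the methionine cycle and of transsulfuration, the route from homocysteine to cysteine, had a median of -0.48 and none beyond 1. SLC25A26, which carries S-adenosylmethionine into mitochondria, was the lowest at -0.94. CTH, which completes the making of cysteine, was the highest at 0.70, with signals of 208.1, 247.0, 316.0 and 339.2 at 0, 6, 12 and 18 h. CTH was higher with each longer exposure to MTA, and its second probe set had 0.09, 0.93 and 0.52 at 6, 12 and 18 h.

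The 9 measured genes that handle cobalamin, the vitamin of MTR, had a median of -0.55 at 18 h. Of these, 1 was below -1, against 15.8% of all genes. It was CD320, the receptor for the vitamin's carrier in blood, at -1.12, with signals of 347.9, 241.4, 240.1 and 159.5 at 0, 6, 12 and 18 h. TCN2, that carrier, was the highest at 0.36, with 44.5, 60.8, 55.6 and 56.9. Each had a single probe set, and that of TCN2 was only a little brighter than the lowest mean signal kept.

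The 8 measured transporters that bring in methionine, serine and other neutral amino acids had a median of -0.52 at 18 h, against -0.47 for all genes. Of these, 2 were below -1, against 15.8% of all genes. With median centring, quantile normalization or division by the trimmed mean none of the 8 was below -1. SLC38A1 had signals of 3035, 1883, 1241 and 1258 at 0, 6, 12 and 18 h, a log2 ratio of -1.27, and -1.27 and -1.54 on its other kept probe sets. SLC7A5, picked after its values had been seen, had a signal of 630.2 at 18 h against 1264 at 0 h. SLC7A8 was the highest at 0.85, with 277.7, 307.4, 410.5 and 501.2. The signals of SLC38A1 were lower on each MTA array than at 0 h and those of SLC7A8 higher on each.

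By all 3 ratios together, the genes nearest to the median ratios of the 8 enzyme genes were MSRB1, SDC1, TRIM33, CCT4 and LGALS3BP, at Euclidean distances of 0.017 to 0.034. The enzyme genes themselves lay at 0.13 to 0.84 from their median ratios. As many as 1079 genes lay within the enzymes' own median distance, 0.24, so the profile is a common one on these arrays.

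**Figure D5:**
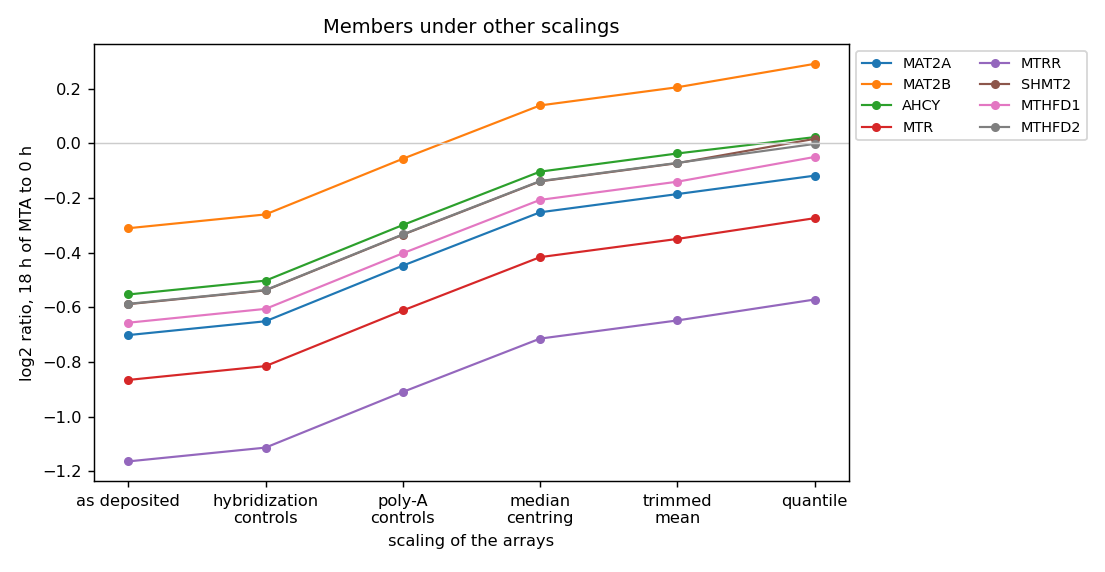
Log2 ratio of the 18 h signal to the 0 h signal for 8 enzyme genes with the deposited scaling and with other scalings of the arrays. MTRR stays lowest, from -1.16 as deposited to -0.57 with quantile normalization, and MAT2B highest, crossing 0 with median centring.

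The size of every ratio depended on how the arrays were scaled, while their order hardly did, which for scalings by 1 factor per array holds by construction. At 18 h the median over the 8 genes was -0.62 as deposited, -0.11 with each array divided by its trimmed mean and -0.0255 with quantile normalization. Under these scalings the median of all genes moved by 0.52 and 0.48. On brightest probe sets MTRR, MTR and MAT2A had the lowest ratios and MAT2B the highest with each of the 6 scalings. These 3 lowest were below 0 with each. The second probe set of MTR, at -0.21 as deposited, lay above MAT2B at -0.31, so this order also rests on the probe set chosen. At 12 h MAT2B, AHCY, MTHFD1 and SHMT2 were above 0 with median centring, quantile normalization, division by the trimmed mean and scaling to the hybridization controls, with 0.13 for MTHFD1 and 0.31 for SHMT2 under quantile normalization, and MAT2A had 0.03 there. At 6 h MAT2B, AHCY, MTHFD1 and SHMT2 were below 0 with scaling to the poly-A controls, and SHMT2 also with the first 3 of those scalings. So the directions given for these genes at 6 and 12 h hold for the deposited scaling.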

How the data were processed

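RCM-1 RNA was labelled as biotinylated cRNA and read on 4 Affymetrix U133 Plus 2.0 arrays, 1 per time, by the array maker's company. Each deposited value was a linear-scale intensity of a probe set, and the submitters' processing notes name MAS5 and Affymetrix Expression Console. Neither the version nor the scaling target is given in the sources used here. MAS5 signals of dim probe sets scatter widely, so a filter was needed.

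Of 54613 probe sets, after 62 controls were left out, those of highest mean log2 signal were kept (lowest 34), in the number that the study's text calls detected. Probe sets were named by the GEO platform annotation, with symbols updated through RefSeq (GRCh38.p14). Of these, 41091 had 1 symbol, 1801 several and 11721 none. A gene was represented by its brightest kept probe set with 1 symbol. Ratios were log2, to 0 h, without a pseudocount or test. The calls were made at 1.5, and at 1 beside it. Simulated data, with planted changes larger than any kept ratio of the enzyme genes, checked the ratios and the call at 1.5 only. Their noise was smaller than the SD between probe sets. Of each further list, genes beyond 1.5 or the lowest and highest at 18 h were named, and the 5 genes nearest in ratios. Members and lists were chosen with earlier results of these data known. The alternatives were 4 filters, 5 scalings, a pseudocount of 16, 3 other choices of probe set and thresholds of 1 and 2. The tools were matplotlib 3.10.9, SciPy 1.17.1, pandas 2.3.3 and NumPy 2.4.6 under Python 3.11.15. RT-PCR and immunoblots were not analysed here.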

Additional observations from a re-analysis of the deposited data

Results flagged for a closer look

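AHCY, MAT2B, SHMT2 and MTHFD1 were above 0 h at 6 h and below it at 18 h. The log2 ratio at 18 h minus that at 6 h was -0.69 for AHCY, -0.43 for MAT2B, -0.62 for SHMT2 and -0.78 for MTHFD1. The difference was not tested, and both ratios use the same 0 h array. With scaling to the poly-A controls all 4 were below 0 at 6 h as well (-0.06 for AHCY, -0.08 for MAT2B, -0.17 for SHMT2 and -0.08 for MTHFD1), and SHMT2 was also with median centring, quantile normalization and division by the trimmed mean. AHCY, MAT2B and SHMT2 were above 0 at 18 h with quantile normalization, and MAT2B also with median centring and division by the trimmed mean, so the change of sign is lost there. As deposited, all 4 genes were within 0.15 of 0 at 6 h, and the median of all genes was likewise 0.11 at 6 h and -0.47 at 18 h.

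A probe set of SHMT1 too dim to be kept lay above its 0 h signal by 2.60 on the log2 scale at 12 h and by 2.02 at 18 h. Only the alternative without a filter uses it. Its signals were 1.95, 2.08, 11.8 and 7.92 at 0, 6, 12 and 18 h, all under the lowest mean signal kept, while another dim probe set of SHMT1 alone had -4.63 and -2.67.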

How the results depend on the processing

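No paired analysis was possible because each time has 1 array. All counts of enzyme genes beyond 1.5 were 0 as deposited, with -1.16 as the lowest ratio, so these counts had little room to move. Over the alternatives, 132 of 138 counts and medians of the enzyme genes moved by less than the tolerance. That tolerance is the SD between probe sets for a median and 1.5 times for a count. Within it the median at 12 h, -0.28 as deposited, was 0.08 with quantile normalization, 0.04 with division by the trimmed mean and -0.0022 with median centring, and that at 18 h -0.17 with median centring and -0.37 with scaling to the poly-A controls. On second probe sets the medians cover only 4 of the 8 genes, with -0.89 at 18 h. Those on probe sets without _s_at or _x_at in their names also cover 4, with -0.62. With a threshold of 1, 1 gene was lower at 18 h. Without a filter, the dim probe sets of SHMT1 and MTHFD1L enter, and 1 gene was lower at 6 h, 1 higher at 12 h and 1 higher at 18 h. The median at 18 h was -0.0255 with quantile normalization and -0.11 with division by the trimmed mean, both of which also move the median of all genes. Of 312 values for single genes, 289 moved by less than the SD between probe sets and 23 by more. The 4 filters, and the counting of probe sets with several symbols, left each of the 8 genes with the same brightest probe set. Their ratios could not move there, so the 289 include values fixed in advance. At 18 h MAT2B turned sign in 3 settings, and AHCY and SHMT2 in 1 each. At 12 h SHMT2 did in 5, MAT2B, AHCY and MTHFD1 in 4 each and MAT2A in 1, and at 6 h SHMT2 in 4, MTR in 2, and MAT2B, AHCY and MTHFD1 in 1 each. Of the further pathway lists, 29 of 576 counts and 20 of 252 medians moved past the tolerance. With the probe sets of several symbols counted for SHMT1 and MTHFD1L, an alternative chosen after seeing the data, the medians at 6, 12 and 18 h were those of the 8 genes and no gene passed 1.5. MTHFD1L, at -1.12 at 18 h, was then below -1 beside MTRR, as were 15.8% of all genes. Signals under 34 limit what can be read of SHMT1 and MTHFD1L.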
